A study of Homo sapiens with 8 samples.

Results

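The basal miRNA profile of PC-3, a human prostate cancer cell line that grows without androgen, was read from the 2 miRNA arrays of cells that received only DMSO, the solvent of the drugs, out of 8 arrays in the series. The other 6 arrays held PC-3 treated with luteolin at 60 µM, gefitinib at 60 µM, or luteolin plus gefitinib at 60 µM each, with 2 arrays per treatment. All cells were harvested 24 h after the addition and all grew in the same medium with serum, and the labels call the 2 arrays of a treatment biological replicates without saying whether they came from separate cultures. The profile therefore describes 1 line under solvent, with no untreated cells and no normal prostate cells beside it. The members were the 1887 human miRNAs of the array, ranked by the total signal that the scanner software gives each of them, and a miRNA counted as detected where the software marked it so. Values below are this total signal scaled between arrays, in arbitrary units, and are given for replicate 1 and then replicate 2 unless stated.

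miRNAs are short RNAs cut as a duplex from a hairpin precursor, and usually the strand of a single arm (5p or 3p) is kept as the guide while the other is degraded. The guide pairs with messenger RNAs mainly through its seed, bases 2 to 8 from the 5′ end, so miRNAs with the same seed form a family with overlapping targets. Many miRNA genes lie close together and are transcribed as a single precursor, so that members of such a cluster can share their level of transcription. In epithelial cells the miR-200 family restrains the transcription factors ZEB1 and ZEB2, and in the prostate miR-143 and miR-145 are known mainly from the smooth muscle of the stroma.

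The sequences of the miRNAs on which the profile turns are given from RefSeq (GRCh38.p14) with the seed in capitals. The first set holds bright miRNAs for which the table had an entry, with miR-4454, which carried most of the signal, first.
miR-4454: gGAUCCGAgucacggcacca
miR-5100: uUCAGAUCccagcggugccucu
miR-4284: gGGCUCACaucaccccau
miR-21-5p: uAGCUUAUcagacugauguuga
miR-125b-5p: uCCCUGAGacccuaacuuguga
miR-23a-3p: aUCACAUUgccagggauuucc
miR-24-3p: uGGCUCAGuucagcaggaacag
miR-27a-3p: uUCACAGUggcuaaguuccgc
miR-16-5p: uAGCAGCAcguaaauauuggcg
The second set shows the bright families, in which members differed from each other in few bases outside the seed, so that cross-hybridisation between the probes of members cannot be told apart from signal of their own.
let-7a-5p: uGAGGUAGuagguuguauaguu
let-7f-5p: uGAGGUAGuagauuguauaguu
let-7b-5p: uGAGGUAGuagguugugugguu
let-7c: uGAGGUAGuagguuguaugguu
let-7g-5p: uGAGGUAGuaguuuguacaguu
let-7i-5p: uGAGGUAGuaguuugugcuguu
let-7d-5p: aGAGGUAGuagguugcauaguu
let-7e-5p: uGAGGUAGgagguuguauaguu
miR-98-5p: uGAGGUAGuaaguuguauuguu
miR-29a-3p: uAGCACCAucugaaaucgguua
miR-29b-3p: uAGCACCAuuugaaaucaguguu
miR-29c-3p: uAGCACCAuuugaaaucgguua
miR-100-5p: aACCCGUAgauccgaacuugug
miR-99a-5p: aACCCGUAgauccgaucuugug
miR-1260a: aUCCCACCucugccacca
miR-1260b: aUCCCACCacugccaccau
The third set holds the miR-200 family, detected in part, and listed miRNAs of epithelium and stroma that were not detected.
miR-200b-3p: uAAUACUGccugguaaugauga
miR-429: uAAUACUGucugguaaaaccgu
miR-200a-3p: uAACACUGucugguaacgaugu
miR-200c-3p: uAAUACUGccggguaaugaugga
miR-141-3p: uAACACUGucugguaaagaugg
miR-375: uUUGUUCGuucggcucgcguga
miR-143-3p: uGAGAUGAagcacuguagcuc
miR-145-5p: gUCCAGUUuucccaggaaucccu
Compared position by position from the 5′ end, let-7a-5p differed from let-7f-5p, let-7c and let-7e-5p at 1 position each, from let-7b-5p, let-7d-5p, let-7g-5p and miR-98-5p at 2 and from let-7i-5p at 4. miR-99a-5p and miR-100-5p differed at 1 position. miR-200b-3p differed from miR-200c-3p at 3 positions, counting the extra base of the latter, and miR-200a-3p from miR-141-3p at 2. Mature miR-4454 lies at chr4:163093607-163093626 on the minus strand, miR-21-5p at chr17:59841273-59841294 within the gene VMP1, and miR-100-5p at chr11:122152275-122152296 within the non-coding gene MIR100HG.

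Under DMSO 425 of the 1887 miRNAs were detected on both arrays, 22.5% of the array, and 1407 were detected on neither. Of the other 55, 50 were detected on replicate 1 alone and 5 on replicate 2 alone, and the brightest of these 55 reached 6.89. Detected signals ran from 0.663 to 136029 on replicate 1 and from 0.776 to 146852 on replicate 2, with medians of 10.4 and 12.8. On replicate 1, 235 detected miRNAs lay under 10 and 17 lay over 1000. On replicate 2 these counts were 193 and 20. The detected set was much the same under the drugs, since the drug arrays also all detected 365 of the 425, and of the 1407 undetected miRNAs 1365 were also undetected on all 6 drug arrays. Signals of different miRNAs come from different probes, so the order of signals need not be the order of the numbers of molecules.

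The brightest signal belonged to miR-4454, at 136029 and 146852. It was followed by miR-720, at 29966 and 33553, an entry that miRBase has since withdrawn because its sequence is that of a transfer RNA fragment. Next came miR-5100, at 7868 and 8703, and miR-4284, at 6351 and 7459.9. miR-1273g-3p stood at 5854 and 5462.5 and miR-1260a at 4721 and 5315. Each of these 6 lay, on its dimmer array, above the next in rank on its brighter array. None of them is a member of the long-studied families such as let-7. Whether entries among them other than miR-720 also read fragments of other RNAs was not tested. The order among them was also close to that on the drug arrays, where miR-4454 ranked 1 and miR-720 ranked 2 on all 6.

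The brightest miRNA of the long-studied families was miR-21-5p, an oncogenic miRNA, at 3401 and 4695. miR-100-5p, which targets MTOR, followed at 2983 and 4054. let-7a-5p, a repressor of RAS and HMGA2 mRNAs, stood at 2296 and 3659.9, and miR-125b-5p at 2186 and 2989. The miR-29 family, known for targeting collagen mRNAs and DNA methyltransferases, filled 3 of the 25 leading places. miR-29a-3p had 1953 and 2519.7, miR-29b-3p 1293 and 1769, and miR-29c-3p 532 and 656. The members of the miR-23a cluster lay near each other, with miR-23a-3p at 1417 and 1978, miR-24-3p at 907 and 1132, and miR-27a-3p at 823 and 1123. Other let-7 members were among the 25, let-7f-5p at 1459 and 2319 and let-7b-5p at 814 and 1091. miR-16-5p, which targets BCL2 and cyclin mRNAs, stood at 613 and 887, miR-19b-3p of the miR-17-92 cluster at 529.7 and 637, and miR-103a-3p at 429.02 and 556. The remaining places were held by miR-4286 (2512 and 2619), miR-1260b (1852 and 2010.0), miR-494 (2812 and 1273) and miR-4459 (762 and 387). From rank 7 to rank 16 every miRNA overlapped with the next in rank, as did those from rank 18 to rank 24, so the order within these stretches was not resolved by 2 arrays. miR-29b-3p at rank 17 stayed above miR-24-3p at rank 18 on both arrays.

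**Figure D1:**
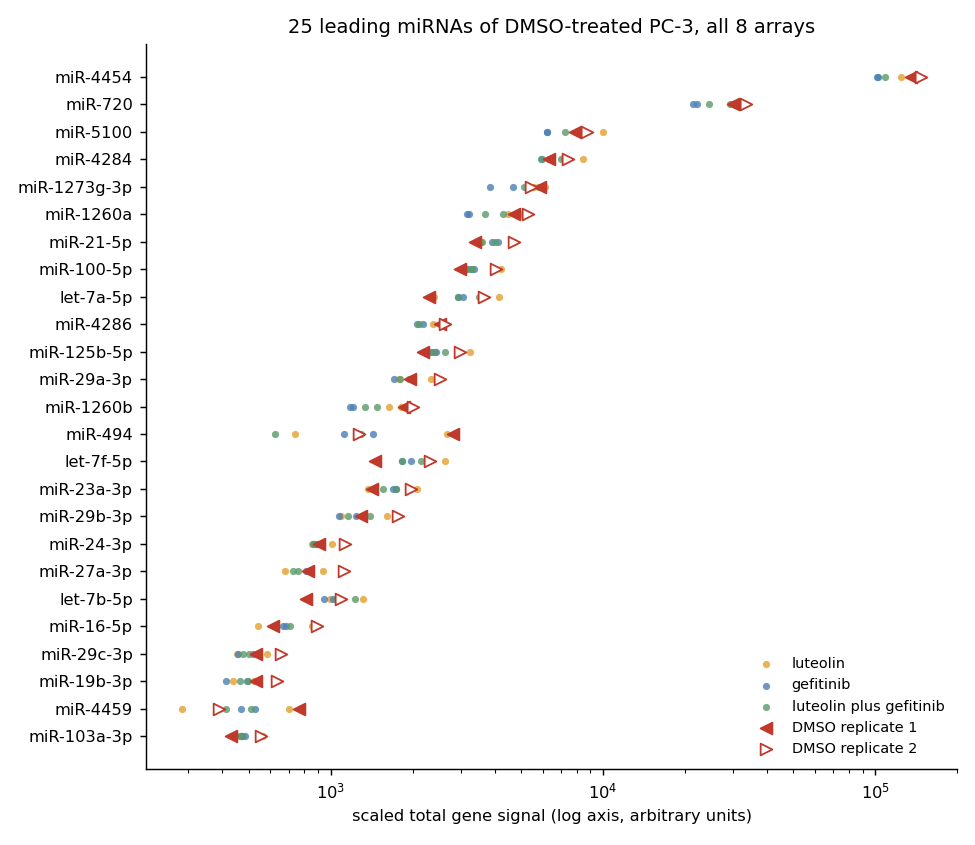
Scaled total gene signal (log axis, arbitrary units) of the 25 leading miRNAs on all 8 arrays, ordered by the mean log2 signal of the 2 DMSO arrays (triangles); circles are single drug arrays. miR-4454 stands at 136029 and 146852 under DMSO and is the brightest miRNA on every array, with miR-720 second; miR-494 shows the widest gap between the DMSO arrays (2812 and 1273).

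The signal was concentrated in few entries of the array. miR-4454 alone held 57.1% and 55.7% of the summed signal of detected miRNAs on the 2 DMSO arrays. With miR-720 the share was 69.7% and 68.5%, the leading 10 held 84.8% and 84.4%, and the leading 25 held 92.5% on each array. miRNAs with registry numbers of 1000 and above, 1062 of the 1887, held 72.3% and 69.9% of the signal. They were detected on both arrays in 17.0% of cases (181 miRNAs) against 29.6% (244 of 825) for let-7 and numbers under 1000, so their share came from a few very bright members. Of the 25 leading miRNAs 23 were among the 25 brightest on each DMSO array taken alone, and 21 miRNAs were among the 25 brightest on every one of the 8 arrays.

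The 2 DMSO arrays gave similar profiles with a spread that differed between groups of miRNAs. Across the 425 miRNAs detected on both, Pearson's r of the log2 signals was 0.982 and Spearman's rho 0.968, across miRNAs that share the arrays and are not independent, and 389 (91.5%) lay within 2-fold. Replicate 2 was over 2-fold higher for 5 miRNAs and over 2-fold lower for 31. Among let-7 and numbers under 1000, 180 of 244 were higher on replicate 2, with a median ratio of replicate 2 to replicate 1 of 1.20. Among numbers of 1000 and above 50 of 181 were higher on replicate 2, with a median ratio of 0.883. The ratio went with base composition over the 356 detected miRNAs with a RefSeq sequence, from a median of 1.26 for the 97 with 27.3% to 45.5% G and C to 0.869 for the 85 with 64.7% to 94.7%. Over these 356 miRNAs Pearson's r of the log2 ratio with the G and C content was -0.33 and Spearman's rho -0.45. The part of base composition, RNA quality or position on the slide in this difference was not tested, and all replicate 1 arrays lay in the same row of the slide and all replicate 2 arrays in the other.

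The miRNAs with the widest gap between the 2 arrays were dim. miR-4769-5p (11.4 and 2.62), miR-3692-5p (6.07 and 1.68), miR-664a-5p (8.09 and 2.31), miR-205-5p (5.37 and 1.72) and miR-4446-3p (9.04 and 2.90) were 3.11 to 4.37 times higher on replicate 1. miR-9-3p (2.44 and 6.89), miR-192-5p (1.74 and 4.89), miR-455-3p (2.82 and 6.72), miR-15a-3p (0.907 and 1.98) and miR-454-3p (5.51 and 11.4) were 2.06 to 2.82 times higher on replicate 2. Among the 25 leading miRNAs 21 lay within 1.5-fold and 22 were higher on replicate 2. miR-494 and miR-4459 were the pair that lay about 2-fold lower there.

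**Figure D2:**
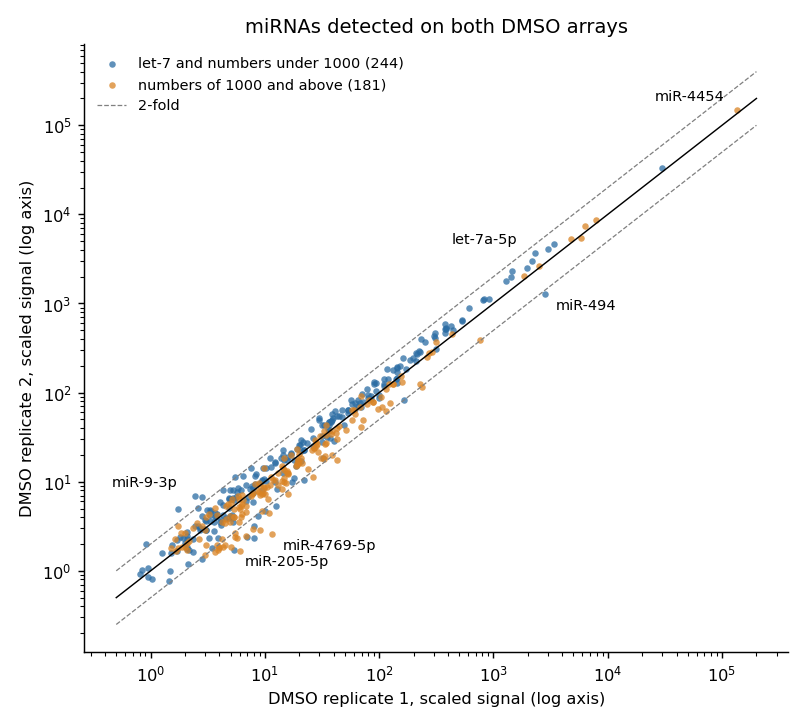
Scaled signal of the 425 miRNAs detected on both DMSO arrays, replicate 1 against replicate 2 (both log axes), with let-7 and registry numbers under 1000 in blue and numbers of 1000 and above in orange; the solid line is equality and dashed lines are 2-fold. Blue points lie mostly above the line (180 of 244) and orange points mostly below it (131 of 181).

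Among seeds shared by at least 2 miRNAs of the array, the let-7 seed and the miR-1260 seed carried the largest shares of signal. There were 167 such seeds, of which 83 had a member detected on both DMSO arrays. The let-7 family summed to 6190 and 9363, or 2.60% and 3.55% of the signal. Of its 11 members on the array 9 were detected on both, all of them the let-7 and miR-98 guide strands, led by let-7a-5p and let-7f-5p. let-7c stood at 388 and 516, let-7g-5p at 379 and 594, let-7i-5p at 377 and 521, and let-7d-5p at 250.2 and 366. let-7e-5p stood at 185 and 234 and miR-98-5p at 41.3 and 61.4. let-7g-5p, let-7c and let-7i-5p overlapped with each other, and miR-98-5p lay below all other detected members on both arrays. The other bright registry-number family, miR-1260a with miR-1260b, held 2.76% and 2.78%.

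Of the next 6 families, the miR-29 family held 1.59% and 1.88% with 3 of 3 members detected. The miR-99/100 family held 1.46% and 1.79%, mostly from miR-100-5p, while miR-99a-5p stood at 381 and 528 and miR-99b-5p at 111 and 126. The miR-21 seed, shared with miR-590-5p, held 1.43% and 1.79%, and the miR-125 seed 0.963% and 1.19%. The miR-23 seed held 0.622% and 0.782%. The miR-15/16 family held 0.468% and 0.616% with all 6 members detected, from miR-16-5p through miR-15b-5p (309 and 468), miR-424-5p (94.7 and 129) and miR-15a-5p (90.3 and 124) down to miR-195-5p (6.47 and 11.6) and miR-497-5p (3.12 and 4.81). Every one of the 8 families had the larger share on replicate 2, by little for miR-1260.

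**Figure D3:**
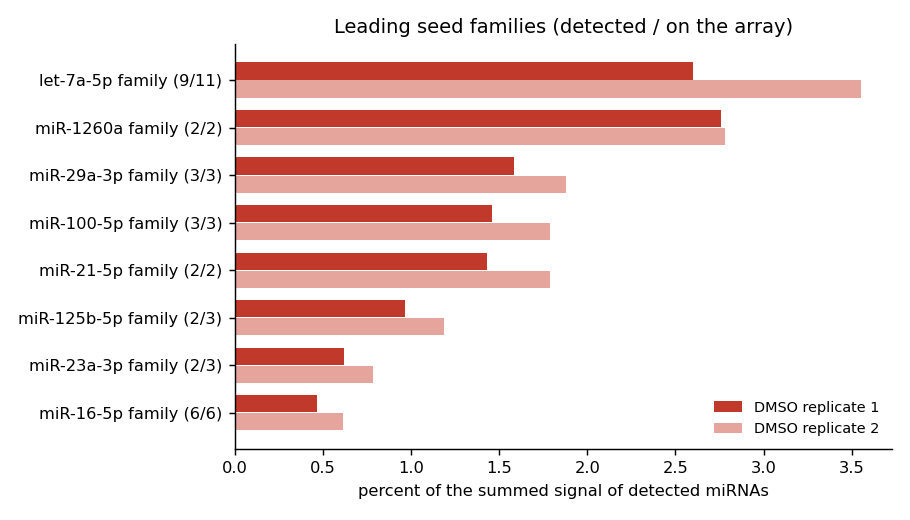
Percent of the summed signal of detected miRNAs held by the 8 leading seed families on each DMSO array; the label gives members detected on both arrays over members on the array. The let-7 family holds 2.60% and 3.55% and the miR-1260 pair 2.76% and 2.78%, while miR-4454 and miR-720, which are not in these families, hold 69.7% and 68.5%.

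Paralogous clusters differed widely in signal. miRNA genes within 10 kb of each other formed 140 clusters with a member on the array, and 63 of these had a miRNA detected on both DMSO arrays. In the cluster at chr11:122146522-122152308, which holds the miR-100 and let-7a-2 genes, miR-100-5p was among the brightest miRNAs of the profile. For its paralogue at chr21:16539089-16539911, miR-99a-5p and let-7c were read at about the same level as each other. The paralogue at chr19:51692612-51693339 was dimmer, with miR-99b-5p at 111 and 126, let-7e-5p at 185 and 234 and miR-125a-5p at 109 and 144. miR-99a-5p differs from miR-100-5p at 1 position, as do let-7c and let-7e-5p from let-7a-5p. Cross-hybridisation with the brighter miR-100-5p and let-7a-5p cannot be told apart from output of these loci. let-7a-5p, miR-125b-5p, miR-24-3p, miR-16-5p, miR-19b-3p and miR-29b-3p each come from more than 1 gene, and the arrays cannot tell these apart.

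The miR-23a cluster at chr19:13836287-13836659 was far brighter than the miR-23b cluster at chr9:95085208-95086094. miR-23a-3p had 1417 and 1978 against 65.0 and 83.5 for miR-23b-3p, and miR-27a-3p had 823 and 1123 against 77.9 and 108 for miR-27b-3p. The miR-17-92 cluster on chromosome 13, an oncogenic cluster, was detected for 9 of its 12 mature miRNAs on the array. Beside miR-19b-3p these included miR-20a-5p (302 and 436), miR-17-5p (221 and 293), miR-19a-3p (209.5 and 277), miR-92a-3p (209.1 and 225) and miR-18a-5p (43.0 and 54.4). Its paralogue within MCM7 on chromosome 7 gave miR-106b-5p at 228 and 287, miR-93-5p at 197 and 247 and miR-25-3p at 153 and 197. The paralogue on chromosome X was seen apart from shared forms only through miR-20b-5p (90.5 and 133) and miR-18b-5p (14.7 and 17.7). miR-221-3p (442 and 504) and miR-222-3p (314 and 309), neighbours on chromosome X that repress the cell-cycle inhibitor CDKN1B, were also bright.

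In the large imprinted cluster at chr14:101022066-101066801, 53 of 57 miRNAs on the array were detected on neither DMSO array. The 4 exceptions were miR-494, with 2812 and 1273, miR-487b (31.5 and 32.4), miR-134 (5.15 and 4.19) and miR-1185-1-3p (5.98 and 3.53). miR-494 was thus at rank 14 of the profile while its neighbours were dim or undetected, and on the 6 drug arrays it ranked between 9 and 22. The nearby group with miR-431 had 2 of 14 detected on both arrays, miR-431-3p (18.6 and 14.8) and miR-432-5p (1.92 and 2.36). The primate cluster on chromosome 19 had 0 of 45 miRNAs detected on any DMSO array, and the miR-302 cluster of pluripotent cells on chromosome 4 had 0 of 10.

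The array carried both arms of 483 hairpins. For 275 neither arm was detected on any DMSO array, for 85 only the 5p arm was detected on both arrays with the 3p arm on neither, and for 56 the reverse held. Both arms were detected on both arrays for 49 hairpins, and the remaining 18 had an arm detected on a single array. Among the 49, the 5p arm was over 2-fold brighter on both arrays for 25, the 3p arm for 10, and 14 lay within 2-fold on at least 1 array. The median gap between arms was 9.46-fold, 23 hairpins exceeded 10-fold, and the direction was the same on both arrays for 46. The arms are read by different probes, so a ratio compares signals and not counts of strands.

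Ratios were ordered by their mean log2 over the 2 arrays, for the 49 hairpins with both arms detected on both. Hairpins with an undetected arm have no ratio here. The largest 5p ratio among the 49 belonged to let-7a, whose 5p arm was read at 2296 and 3659.9 and whose 3p arm at 4.26 and 4.28. Next were let-7i (377 and 521 against 0.951 and 1.08), miR-30d (111 and 118 against 0.802 and 0.923), miR-30b (161 and 244 against 1.71 and 1.66) and miR-15b (309 and 468 against 3.03 and 3.62). The largest mean 3p ratio belonged to miR-23a (4.11 and 3.27 for 5p against 1417 and 1978 for 3p), which lay behind miR-29a on replicate 1. Next on the mean were miR-29a (5.02 and 6.39 against 1953 and 2519.7), miR-200b (0.949 and 0.844 against 143 and 144), miR-29c (3.80 and 4.34 against 532 and 656) and miR-222 (3.62 and 3.53 against 314 and 309). On the log2 scale these 10 ratios ranged from 9.74 to -9.24 and none changed direction between the arrays.

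Of the leading miRNAs, miR-21 kept a visible second arm, with miR-21-3p at 99.4 and 94.2, and miR-100-3p stood at 37.8 and 48.2. miR-27a-3p and let-7b-5p had partners that were not detected on either array. The hairpins nearest to equal were miR-193b (2.33 and 1.63 for 5p, 2.09 and 1.78 for 3p), miR-362 (6.15 and 8.03, 4.96 and 8.01), miR-652 (5.30 and 3.50, 3.31 and 4.24), miR-501 (4.09 and 3.71, 3.23 and 2.31) and miR-140 (11.4 and 14.5, 16.8 and 20.7), all dim. miR-31 had both arms well above these values, with miR-31-5p at 373 and 469 and miR-31-3p at 133 and 182.

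**Figure D4:**
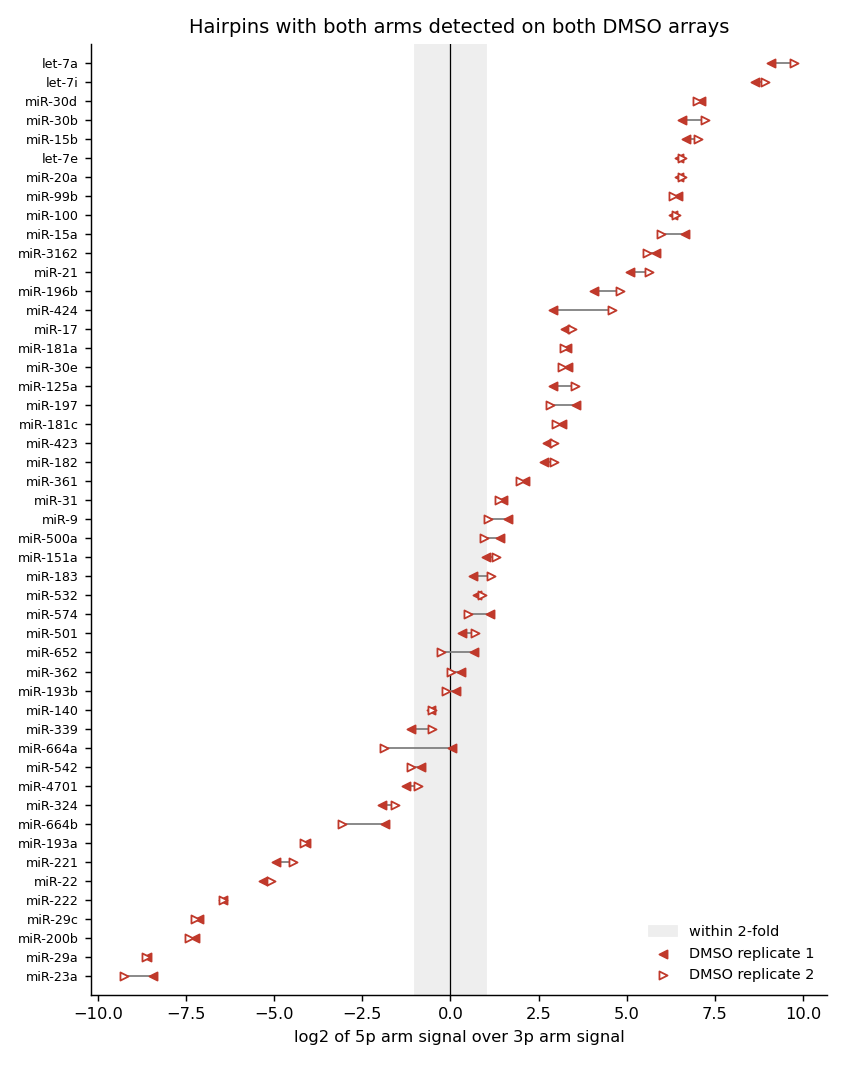
log2 ratio of 5p to 3p arm signal on each DMSO array for the 49 hairpins with both arms detected on both arrays, ordered by the mean; the grey band is within 2-fold. Ratios run from 9.74 for let-7a to -9.24 for miR-23a, and 46 of 49 hairpins keep their direction on both arrays.

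Of 57 different miRNAs listed as prostate-linked, epithelial or tumour-suppressing, 35 were detected on both DMSO arrays, 2 on a single array and 20 on neither. The undetected share of these lists was 35.1%, lower than the 74.6% over all miRNAs on the array. All 20 were also undetected on the 6 drug arrays. Over the listed miRNAs undetected under DMSO, those of other cell types included, the mean spot signal never exceeded 3.21 in unscaled units and at most 3.33% of spots lay well above background. Absence of these miRNAs from the cells was not shown.

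In the prostate-linked list 12 of 18 were detected on both arrays, beside 22.5% of the whole array. Beside miR-21-5p, miR-100-5p and miR-125b-5p, the bright members were miR-221-3p, miR-222-3p, miR-99a-5p and miR-31-5p. miR-27b-3p, miR-23b-3p and miR-32-5p (4.88 and 6.497) lay lower, and miR-148a-3p (3.44 and 1.80) and miR-205-5p (5.37 and 1.72), a marker of basal prostate epithelium, lay near the limit. miR-205-5p was detected on 4 of the 6 drug arrays and miR-148a-3p on 5. The 6 undetected members were miR-375 and miR-141-3p, which are known from luminal, androgen-responsive prostate cancer cells, miR-143-3p and miR-145-5p of stromal smooth muscle, miR-224-5p and miR-449a.

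The miR-200 family was split by its clusters. The cluster at chr1:1167104-1169087, within MIR200BHG, was detected, with miR-200b-3p at 143 and 144, miR-200a-3p at 85.1 and 85.0 and miR-429 at 36.7 and 30.6. These 3 were also detected on all 6 drug arrays, where miR-200b-3p ran from 124 to 153. Of the cluster at chr12:6963699-6964191, within MIR200CHG, 0 of 4 mature miRNAs were detected on any of the 8 arrays, among them miR-200c-3p and miR-141-3p. miR-200b-3p and miR-200c-3p share the seed printed above, as do miR-200a-3p and miR-141-3p, so each seed of the family was carried by the chromosome 1 cluster. Of the other epithelial miRNAs, miR-96-5p stood at 231 and 404, with its cluster neighbours miR-182-5p at 46.8 and 64.0 and miR-183-5p at 29.5 and 52.0. miR-192-5p and miR-194-5p (2.57 and 5.04) were near the limit, miR-215 was detected on replicate 2 alone, and miR-203a of differentiating epithelium was not detected.

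Of 32 tumour-suppressor miRNAs 16 were detected on both arrays and 15 on neither, beside 22.5% and 74.6% of the whole array. The bright ones were the miR-29 and let-7a guides and miR-16-5p, followed by miR-31-5p, miR-26a-5p (120.3 and 141.1) and miR-15a-5p. miR-218-5p (44.8 and 54.9), miR-146a-5p (38.4 and 49.1) and miR-101-3p (26.2 and 30.8) were intermediate. miR-34a-5p, a target of p53, stood at 11.2 and 18.5. Its relatives miR-34b-5p, miR-34c-5p, miR-449a and miR-449b-5p, which act on overlapping targets, were not detected on any of the 8 arrays. Also undetected on all 8 were miR-124-3p, miR-137, miR-129-5p, miR-1, miR-133a, miR-206, miR-126-3p, miR-127-3p and miR-486-5p, beside miR-143-3p and miR-145-5p. miR-338-3p was detected on replicate 2 alone (1.98), and miR-335-5p (3.28 and 4.82) and miR-193b-3p (2.09 and 1.78) lay near the limit.

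Of 36 different miRNAs listed for other cell types, 31 were detected on neither DMSO array (86.1%), beside 1407 of the 1887 miRNAs on the array (74.6%). The undetected ones were 10 of 10 smooth muscle and stromal miRNAs, 8 of 8 blood cell miRNAs, 2 of 2 endothelial, 2 of 2 liver and 8 of 8 pluripotent cell miRNAs, and only miR-142-3p among them was detected on a drug array, on 1 of 6. Of 6 miRNAs known from neural tissue 4 were detected on both arrays, miR-128 (32.9 and 43.3), miR-9-5p (7.58 and 14.3), miR-219-5p (4.06 and 5.96) and miR-9-3p, while miR-124-3p was not. miR-1, miR-133a, miR-206, miR-143-3p, miR-145-5p, miR-126-3p, miR-124-3p, miR-338-3p and miR-486-5p are among those that stand in more than 1 list.

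**Figure D5:**
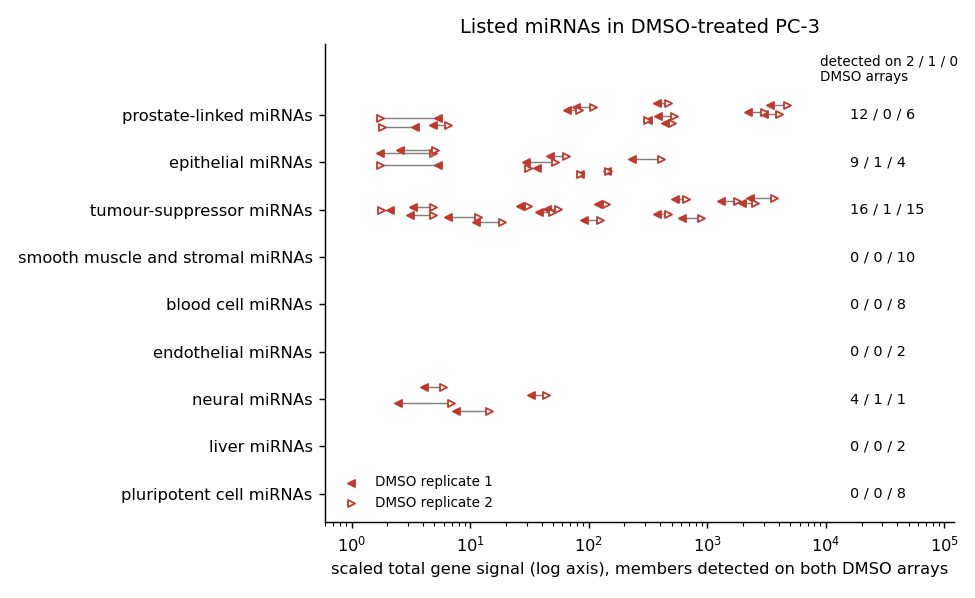
Scaled signal (log axis) on each DMSO array of the listed miRNAs detected on both arrays, by list; the numbers on the right count members detected on 2, 1 and 0 DMSO arrays. Stromal, blood, endothelial, liver and pluripotent lists have 0 members detected, and the prostate-linked, epithelial and tumour-suppressor lists have 6, 4 and 15 undetected members. Over the whole array 74.6% of miRNAs are undetected.

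Whether the leading miRNAs of the solvent profile differed from those of drug-treated cells was asked by comparing the DMSO arrays with the mean of the 3 drug groups in limma, with Benjamini-Hochberg adjustment over 480 miRNAs. In all, 47 miRNAs were called (9.79%), 22 higher under DMSO (4.58%) and 25 lower (5.21%), and 106 had an unadjusted p under 0.05. The called miRNAs included 26 that all 8 arrays detected, 9 that no DMSO array did and 3 that no drug array did, and these 9 and 3 passed the filter only through the arrays on which they were high. None of the 25 leading miRNAs was called, and their smallest adjusted p was 0.069, for miR-1260b. Their log2 differences, DMSO minus drugs, ran from -0.20 for let-7b-5p to 0.69 for miR-494, with a median of 0.15 beside 0.13 over all 480. Of the let-7 guides 0 of 9 were called, of the tested prostate-linked miRNAs 0 of 12, of the epithelial 0 of 10, of the tumour-suppressor 0 of 16 and of the neural 0 of 4, with medians of -0.08, 0.09, -0.01, 0.13 and 0.01. A miss of the threshold does not show that levels were the same, and the leading 25 were chosen by the DMSO values that enter this comparison. The count of calls rested on single arrays, and so did the split by direction. It fell to 18 when DMSO replicate 1 was left out and to 16 when DMSO replicate 2 was, to 16 and 18 when replicate 1 or replicate 2 of gefitinib was, and to 31 when replicate 2 of luteolin plus gefitinib was, and it rose to 85 when replicate 2 of luteolin was left out. Calls lower under DMSO fell most, from 25 to 3 and 2 without DMSO replicate 1 or 2 and to 4 without either gefitinib replicate in turn, while higher calls went from 22 to 15, 14, 12 and 14. With quantile normalization 9 of 39 calls were higher under DMSO, and the median over all 480 moved from 0.13 to 0.03, or to -0.06 without scaling.

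Of the miRNAs higher under DMSO, miR-503-5p, of the miR-424 cluster, was read at 9.78 and 10.8 under DMSO and at 1.11 to 1.74 on the drug arrays (median 1.52), a log2 difference of 2.80 ± 0.14 (SE, limma adjusted p = 0.00089). That cluster was looked at after miR-503-5p was called, and of its 6 detected miRNAs 2 were called, beside 9.79% of all 480. The second was miR-542-3p, read at 3.72 and 4.04 against 2.56 to 2.93 (log2 difference 0.51, limma adjusted p = 0.048), while miR-424-5p stood at 94.7 and 129 against a median of 81.4 (0.43, limma adjusted p = 0.37). miR-100-3p, the weaker arm of its hairpin, was read at 37.8 and 48.2 against 3.76 to 19.7 (median 11.3, log2 difference 2.23 ± 0.25, limma adjusted p = 0.0064). miR-29b-1-5p stood at 19.9 and 25.8 against 3.90 to 10.68 and miR-15b-3p at 3.03 and 3.62 against 0.985 to 1.59, with log2 differences of 1.77 and 1.496. miR-431-3p stood at 18.6 and 14.8 against 3.05 to 11.3 (1.44). For all 5 both DMSO arrays lay above all 6 drug arrays, and DMSO and drug arrays did not overlap for 33 of the 47 called miRNAs and for 74 of all 480 (15.4%). The size depended on the treatment of low signal, since with normexp background correction and quantile normalization the log2 differences were 0.27 for miR-503-5p, 0.72 for miR-100-3p, 0.45 for miR-29b-1-5p, 0.32 for miR-431-3p and 0.06 for miR-15b-3p, which was then not called.

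Of the miRNAs lower under DMSO, miR-4746-3p (14.7 and 13.6 against 15.2 to 40.8) and miR-4443 (123 and 125 against 150.5 to 315) lay below all drug arrays, each with a log2 difference of -0.93. miR-630 (32.0 and 18.6 against 24.8 to 121), miR-5703 (33.5 and 19.4 against 25.8 to 125) and miR-642a-3p (142 and 129 against 140.0 to 419) overlapped between DMSO and drug arrays. The overlap lay with the luteolin arrays, read at 40.2 and 24.8 for miR-630, 42.2 and 25.8 for miR-5703 and 204 and 140.0 for miR-642a-3p, while all 4 arrays with gefitinib lay above both DMSO arrays. The log2 differences were -1.52 for miR-630 and -1.49 for miR-5703, with a limma adjusted p of 0.023 for miR-642a-3p, and miR-5703 was not called with the replicate number as a block. Without DMSO replicate 2, 9 of these 10 named miRNAs were no longer called, all but miR-503-5p. Without DMSO replicate 1, 6 were no longer called. The log2 differences kept their sign, and those that moved most were miR-630, at -1.13 without DMSO replicate 2 and -1.92 without DMSO replicate 1, and miR-5703, at -1.10 and -1.88. When any single array of gefitinib or of luteolin plus gefitinib was left out, miR-630 and miR-5703 were no longer called. Their log2 differences were then -1.45 to -1.60 for miR-630 and -1.40 to -1.59 for miR-5703. Other named miRNAs lost their calls too, except without replicate 1 of luteolin plus gefitinib. Calls were also lost for 8 of the 10 with the methods' t-test and for 8 with no filter. miR-15b-3p and miR-642a-3p lost theirs with quantile normalization and miR-431-3p without scaling.

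Some of the miRNAs higher under DMSO were the weaker arm of a hairpin. Of the 34 weaker arms detected on all 8 arrays, 4 were called higher and 0 lower. Among all 365 miRNAs detected on all 8 arrays 26 were called in either direction. Over all 480 the shares were 4.58% higher and 5.21% lower. The 4 weaker arms called higher were miR-100-3p, miR-15b-3p, miR-20a-3p and miR-30e-3p. Of the 177 stronger arms detected on all 8 arrays, 3 were called higher and 6 lower. The arms were sorted by the DMSO signal itself, so the counts are a description with no test. The counts of 4 and 3 higher went to 1 and 1 with quantile normalization, 2 and 0 without scaling, 0 and 1 with no filter, 0 and 0 without DMSO replicate 2, 7 and 5 without luteolin replicate 1 and 7 and 9 without luteolin replicate 2. let-7e-3p, miR-3935, miR-15a-3p and let-7f-2-3p were detected on both DMSO arrays and on 0 of 6 drug arrays, at 0.804 to 2.46, and miR-3617-5p on 0 DMSO arrays and on all 6 drug arrays.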

How the data were processed

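Total RNA of PC-3 cells was labelled with Cy3 and hybridised by the authors to 1-colour Agilent human miRNA arrays, and Agilent Feature Extraction 10.7.3.1 gave, per the file headers, linear signal intensity with the background subtracted. The deposited files hold no normalization between arrays. Over bright miRNAs on the DMSO arrays, the deposited total gene signal intensity was 0.563 to 0.577 times the mean of a miRNA's 30 spots. The ratio varied more between bright miRNAs on the arrays with gefitinib, down to 0.00017 on luteolin plus gefitinib replicate 1. No miRNA spot was saturated, and undetected miRNAs were set to 0.1. All 8 arrays lay on 1 slide read in 1 scan, so slide and scan were no batch. The number of arrays limits the precision, and p-values measure only the spread between arrays, which may be technical.

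Samples were grouped by the treatment in the labels. For each array the total signal was divided by its 75th percentile over the 365 miRNAs detected on all 8 arrays and multiplied by the geometric mean of these percentiles, which does not change ranks or shares within an array. The test used log2 values above a floor of 0.609. It took the 480 miRNAs that both arrays of some group detected, in limma 3.58.1 in R 4.3.3 (lmFit and eBayes, 4 groups in 1 fit, 4 residual degrees of freedom, prior 1.66), and DMSO was set against the mean of the 3 drug groups, two-sided. Where both arrays of a treatment were at the floor there was no spread, and the standard error is too small. The fit was tested on simulated data. Profiles were described with Python 3.11.15 and pandas, with no test.

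Mature sequences, gene positions and overlapping genes were taken from RefSeq (GRCh38.p14) by name, and 1587 of 1887 names matched (356 of the 425 detected on both DMSO arrays). The array design names another build, so positions are those of RefSeq. Strand and exons of overlapping genes were not considered. Seeds were bases 2 to 8, and clusters were miRNA genes within 10 kb of a neighbour. An arm was called preferred where its signal exceeded the other by over 2-fold on both DMSO arrays. The miRNAs named were the 25 with the highest mean log2 signal, members of the lists and of the 8 leading seed families, the 5 largest arm ratios per direction and the 5 nearest to equal, the 5 widest replicate gaps per direction, and up to 5 called miRNAs per direction detected on all 8 arrays. Other cluster members and weaker arms were named after their values were seen. The members and lists were chosen with earlier results of these data known. Alternatives changed detection, scaling, background correction, filter, floor, families, clusters, the arm threshold, the test and the arrays used.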

Additional observations from a re-analysis of the deposited data

How the results depend on the processing

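The description of the DMSO arrays changed little with the settings tried. Requiring 50% of the spots well above background left 302 miRNAs in place of 425, and accepting detection on 1 array gave 480. The share of the leading 10 was 78.7% with normexp and quantile normalization in place of 84.6%. Ranked anew on a single DMSO array, the leading 10 held 85.0% on replicate 1 and 84.5% on replicate 2. The let-7 share, the counts of arm preference, the clusters with a detected member (93 at 50 kb) and the undetected listed miRNAs (20 to 25) stayed within 1.5-fold or within the spread of the 2 arrays.

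The comparison with the drug groups was less stable. In place of 47 calls there were 28 without scaling, 73 with normexp and quantile normalization, 23 over miRNAs detected on all 8 arrays, 17 with no filter and 12 with the methods' t-test after Benjamini-Hochberg adjustment. Higher calls were 46.8% of calls, but 23.1% with quantile normalization, 31.5% with normexp and 91.7% with the methods' t-test. Scaling by the 75th percentile over all miRNAs gave 0 calls in limma and 0 with an unadjusted p under 0.05, because that percentile was 0.1, the value of an undetected miRNA, on 5 of 8 arrays. Leaving out single arrays gave 16 to 85 calls. With the replicate number as a block there were 49 calls, 42 of them shared with the 47, and miR-5703 was no longer called. The numbers were not taken to pair the samples. The correlation of same-numbered deviations was 0.908 for DMSO and luteolin, 0.461 for luteolin and the combination and 0.409 for DMSO and the combination, but -0.135 to 0.065 for the 3 pairs with gefitinib alone. None of the 10 miRNAs named as differing changed direction under a setting in which it was tested, but their sizes did. With normexp and quantile normalization miR-503-5p went from 2.80 to 0.27 and miR-4746-3p from -0.93 to -0.26, and with log2 of the signal plus 16 they went to 0.59 and -0.54. miR-15b-3p went from 1.496 to 0.06 and 0.17, and was not called with normexp. Signals under about 10, where 235 and 193 detected miRNAs lie, are the least resolved.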
